A study of Homo sapiens with 6 samples.

Results

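The genes described here encode 10 regulators of epithelial identity: the grainyhead-like factors GRHL1, GRHL2 and GRHL3, the ETS-family factors ELF3 and EHF, the zinc finger repressors OVOL1 and OVOL2, the p53-family factor TP63 and the splicing regulators ESRP1 and ESRP2. They were chosen by name, as 10 of the 60719 genes in the deposited tables. Human pluripotent stem cells (hPSCs), labelled as the embryonic stem cell lines H1 and H9, were kept for 96 h either in simulated microgravity (sµg) on a 2-D clinostat or at normal gravity (1g). A clinostat turns adherent cultures about an axis, here at a fast rate, so that over time no direction of gravity prevails. The labels name no other treatment, and the same medium and Matrigel-coated surface for both conditions. Each condition had 3 libraries of poly(A) RNA. The sources used here do not say which line, or which mixture of lines, went into each library, nor whether the 3 libraries came from separate cultures. The p-values therefore rest on a spread between libraries that may be technical alone.

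Epithelial cells are held together by adherens junctions, tight junctions and desmosomes, and hPSCs themselves grow as an epithelial sheet that carries E-cadherin. Grainyhead-like factors bind the regulatory regions of junction genes and are needed for closing of the neural tube and for the skin barrier. OVOL factors repress genes of the epithelial-mesenchymal transition (EMT), and ESRP proteins set the epithelial pattern of alternative splicing, as in the receptor gene FGFR2. ELF3 and EHF act in differentiating epithelia, and TP63 marks the basal cells of stratified epithelia.

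The 6 libraries held between 19971097 and 28506848 expected counts. Library sµg replicate 3 stood apart from its group. Its counts differed from those of the other sµg libraries by a chi-square of 5.83 and 6.11 per gene, where other pairs of replicates gave 1.65 to 2.23. Pluripotency markers (6 of 6 detected) summed to between 4683 and 4703 TPM in 1g and between 4532 and 4597 TPM in sµg. All 6 were tested between the conditions, and 1 fell and 0 rose in sµg. TPM is a level per transcript length, relative to the sum of all such levels, and CPM is the expected count relative to the scaled library total, without regard to length. Of 6 keratinocyte markers, KRT5, KRT14, KRT1 and IVL had 0 counts in every library. The 6 summed to between 19.8 and 26.5 TPM in 1g and between 21.1 and 23.5 TPM in sµg, nearly all of it from KRT10. KRT10 did not pass the test between the conditions (adjusted p = 0.824 from edgeR).

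Of the 10 regulators, 8 had enough counts to be tested, 4 fell in sµg and 0 rose, at an adjusted p under 0.05 from edgeR's quasi-likelihood test. GRHL3, ELF3, OVOL1 and GRHL1 were the genes that fell, and ESRP1, ESRP2, GRHL2 and OVOL2 did not pass the test. Over all 16763 genes tested, 33.7% were called, 18.2% as lower and 15.5% as higher. Among the regulators, 1 gene, ESRP1, was higher at an unadjusted p under 0.05, and DESeq2 and limma on log2(TPM + 1) called 0 as higher. DESeq2 and limma called 3 as lower. The sµg values lay wholly below the 1g values for 5 of the 8 genes, while 45.5% of all genes tested did not overlap in either direction. Without sµg replicate 3, 4 regulators were lower and 1, ESRP1, was higher.

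**Figure D1:**
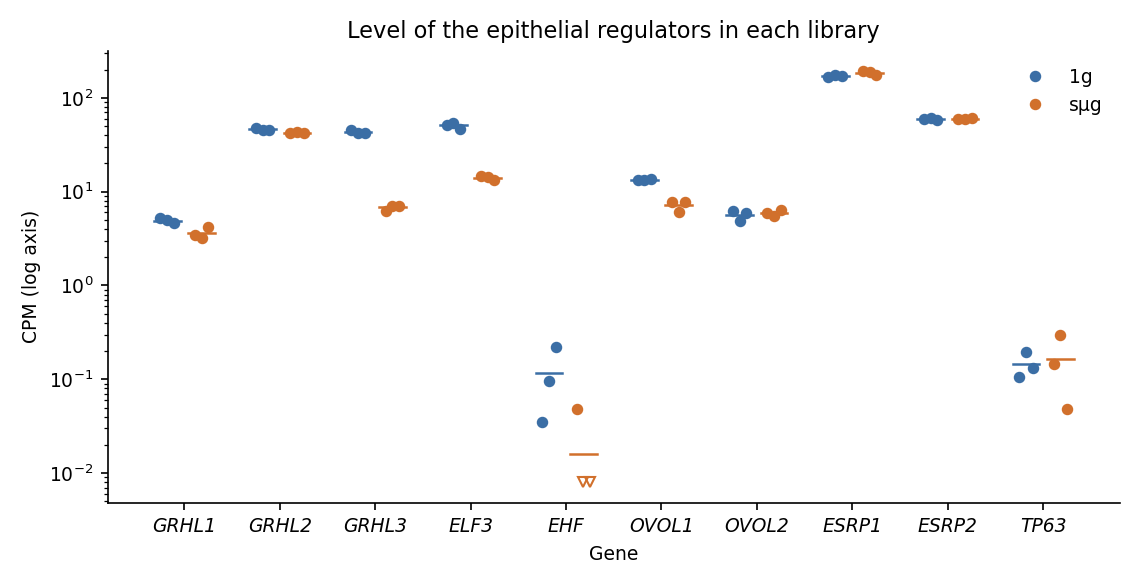
Level of the 10 regulators in CPM on a log axis, with 1 point per library, 1g in blue and sµg in orange, and a line at the mean of each group. Open triangles at the foot of the plot stand for libraries with 0 counts. The orange points of GRHL3, ELF3, OVOL1 and GRHL1 lie below all their blue points, whereas those of ESRP2 and OVOL2 are mixed with them.

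GRHL3, the grainyhead-like factor of the surface ectoderm and epidermis, lies on chromosome 1 of GRCh38 from 24199558 to 24364482 (ENSG00000158055). Its level was 44.8, 42.4 and 42.2 CPM in the 1g libraries and 6.14, 7.10 and 7.09 CPM in the sµg libraries. All 3 sµg libraries were far below all 3 1g libraries, and the values within each group were close. The means were 43.1 ± 1.47 and 6.78 ± 0.546 CPM (SD, n = 3 each), a fall of 6.38-fold with a 95% interval of 5.74 to 7.08. On the log2 scale the change was −2.67 ± 0.0718 (standard error), with an adjusted p = 4.15e-15 from edgeR. Of the 16763 genes tested, 55 had a larger fall. GRHL3 had already been picked out by the study on these same samples, so its direction here is not independent evidence. In bulk RNA, fewer cells that express a gene and less of its RNA per cell cannot be told apart.

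ELF3, an ETS-family activator of epithelial differentiation genes, lies on chromosome 1 from 202007945 to 202017183 (ENSG00000163435). The 1g libraries had 51.4, 54.1 and 46.9 CPM, and the sµg libraries had 14.5, 14.2 and 13.2 CPM. The highest sµg value was thus well under the lowest 1g value. ELF3 fell 3.63-fold (95% interval 3.29 to 3.99), or by −1.86 ± 0.0663 (standard error) on the log2 scale (adjusted p = 2.47e-13 from edgeR), and 127 tested genes fell further.

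The promoters of GRHL3 and ELF3, the regulators with the largest falls, are shown so that their sequence can be read beside these values. Both are on the plus strand of GRCh38.p14 as RefSeq gives it, from 250 bases before the annotated start to 50 bases from the start on, at chr1:24319107-24319406 and chr1:202010337-202010636. These starts are those of the transcripts GRHL3-204 and of ELF3-202 and ELF3-203, which carried much of each gene's RNA. Capitals mark matches to the motifs named after the sequences.
GRHL3: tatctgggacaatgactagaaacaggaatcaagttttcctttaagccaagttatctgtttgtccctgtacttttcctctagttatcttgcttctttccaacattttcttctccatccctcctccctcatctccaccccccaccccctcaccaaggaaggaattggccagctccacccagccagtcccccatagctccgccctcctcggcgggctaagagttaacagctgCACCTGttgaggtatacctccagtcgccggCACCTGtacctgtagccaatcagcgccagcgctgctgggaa
ELF3: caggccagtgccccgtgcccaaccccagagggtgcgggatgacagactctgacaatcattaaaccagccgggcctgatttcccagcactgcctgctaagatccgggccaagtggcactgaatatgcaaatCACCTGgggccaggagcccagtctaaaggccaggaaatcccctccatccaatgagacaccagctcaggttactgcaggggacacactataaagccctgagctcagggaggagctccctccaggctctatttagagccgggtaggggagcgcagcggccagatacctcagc
The motifs searched on both strands were AACNNGTT for grainyhead-like factors, GCCNNNGGC for AP-2, CAGGTG for the E-box bound by ZEB and SNAI factors, AGGTCA for nuclear receptor half-sites and GGAAGT for ETS factors. The GRHL3 window held 2 E-boxes, from −21 to −16 and from 9 to 14 relative to the start at 0, both as CACCTG, and the ELF3 window held 1, from −120 to −115. An E-box is found in 20.6% of the 35116 promoters of the table. The other letters, found in 3.52% (AACNNGTT), 23.2% (GCCNNNGGC), 13.8% (AGGTCA) and 22.8% (GGAAGT) of promoters, were not in these 2 windows. RefSeq gives GRHL3 a further promoter at chr1:24322790-24323089, at whose start GRHL3-204 does not begin. The starts of the other GRHL3 transcripts were not compared with it. This further window held 1 GCCNNNGGC match, from −50 to −42, and no E-box. No motif overlapped another. RefSeq's table held promoters for 5 of the 10 regulators, and the GRHL1 window, chr2:9951443-9951742, held none of the 5 motifs.

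Of the other grainyhead-like genes, GRHL1 changed by less and GRHL2 did not pass the test. GRHL1, a factor that regulates genes of desmosomes, lies on chromosome 2 from 9951693 to 10002277 and had 5.24, 4.94 and 4.58 CPM in 1g and 3.46, 3.23 and 4.22 CPM in sµg. All sµg libraries were below all 1g libraries, with sµg replicate 3 closest to the 1g range. The change was −0.44 ± 0.14 (standard error) on the log2 scale, with an adjusted p = 0.0212 from edgeR. The GRHL1 call was lost without 1g replicate 1 (−0.39, adjusted p = 0.1), without 1g replicate 2 (−0.44, adjusted p = 0.0559), without sµg replicate 1 (−0.40, adjusted p = 0.0675) and without sµg replicate 2 (−0.36, adjusted p = 0.0958). It was also lost with DESeq2 (adjusted p = 0.0819), with an offset for effective length (−0.13, adjusted p = 0.661) and with limma on log2(TPM + 1) (−0.06, adjusted p = 0.811). Per length its level was 1.98 ± 0.283 TPM in 1g and 1.87 ± 0.353 TPM in sµg, and these values overlapped.

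GRHL2, the grainyhead-like factor of simple epithelia and of E-cadherin regulation, lies on chromosome 8 from 101492439 to 101669726. It had 47.1, 45.6 and 45.4 CPM in 1g and 41.7, 43.1 and 42.5 CPM in sµg. The groups did not overlap, but the gap was small. Its log2 fold change was −0.12 with a 95% interval of −0.22 to −0.02 (adjusted p = 0.0579 from edgeR), so GRHL2 missed the threshold, and it did so under every alternative of the gene test.

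In TPM the 3 grainyhead-like genes summed to 42.9, 38.1 and 39.6 in the 1g libraries and to 19.98, 17.5 and 17.7 in the sµg libraries. GRHL3 held between 55.1% and 62.9% of this sum in 1g and between 17.4% and 20.7% in sµg. GRHL2 held between 32.2% and 40.6% in 1g and between 66.3% and 73.9% in sµg, so the leading grainyhead-like transcript was that of GRHL3 in every 1g library and that of GRHL2 in every sµg library. The ratio of GRHL3 to GRHL2 was 1.42, 1.95 and 1.36 in 1g and 0.236, 0.313 and 0.273 in sµg. An exact permutation test of this ratio gave a two-sided p = 0.1, the smallest that 3 against 3 libraries allow, or 0.2 adjusted over the 4 pairs compared. The ratio of GRHL1 to GRHL2 overlapped between the groups (exact permutation p = 0.7, 0.933 adjusted).

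**Figure D2:**
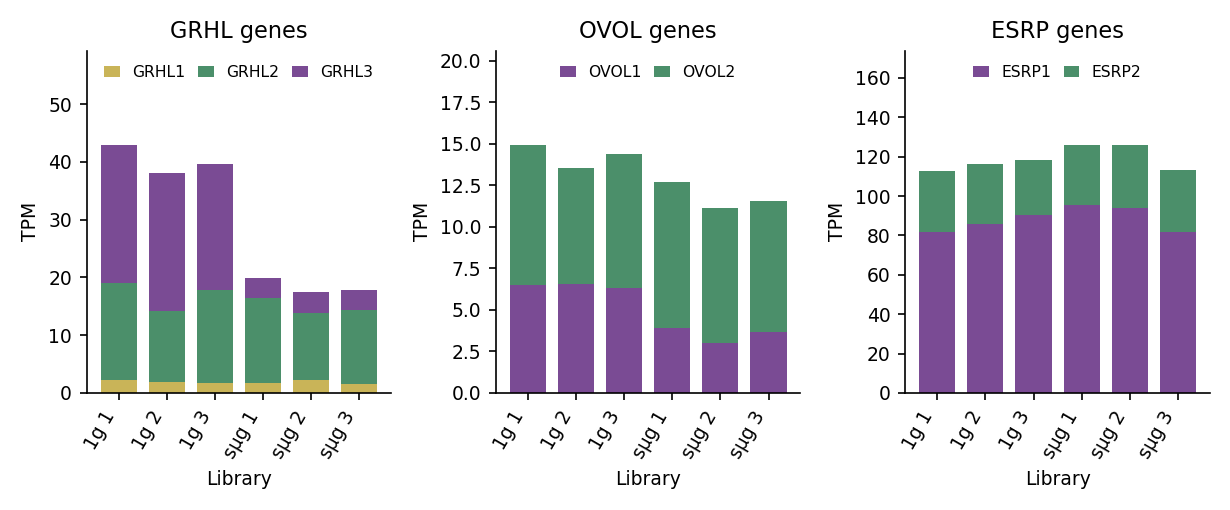
Summed TPM of the GRHL, OVOL and ESRP genes in each library, with the part of each gene in its own color. GRHL3 is the tallest part of the GRHL bars in 1g, between 21.8 and 23.9 TPM, and falls to between 3.46 and 3.62 TPM in sµg, while ESRP1 makes up 72.6% to 76.4% of the ESRP bars over all 6 libraries.

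The repressors OVOL1 and OVOL2 differed from each other. OVOL1, on chromosome 11 from 65787063 to 65797214, had 13.4, 13.3 and 13.5 CPM in 1g and 7.78, 6.005 and 7.76 CPM in sµg. Every sµg library was lower than every 1g library. OVOL1 fell 1.86-fold (95% interval 1.61 to 2.15), which is −0.90 ± 0.0994 (standard error) on the log2 scale (adjusted p = 1.35e-06 from edgeR), and its call was lost in the alternative that asks for a log2 change of 1 or more in size. OVOL2, on chromosome 20 from 17956979 to 18059188, had 6.23, 4.84 and 5.85 CPM in 1g and 5.90, 5.56 and 6.41 CPM in sµg. These values were interleaved, and the log2 fold change of 0.07 had a 95% interval of −0.19 to 0.33 (adjusted p = 0.713 from edgeR). The ratio of OVOL1 to OVOL2 in TPM was between 0.767 and 0.944 in 1g and between 0.368 and 0.471 in sµg (exact permutation p = 0.1, 0.2 adjusted). Most of the OVOL2 TPM in 1g, 66.1 ± 9.60% (SD, n = 3), came from OVOL2-205, annotated without a defined coding sequence. The coding transcript OVOL2-201 held 16.8 ± 8.19% in 1g, so the ratio does not compare coding RNA alone. OVOL2 overlaps SNX5 on the same strand, at a mean of 183 TPM, and MGME1 on the opposite strand, at 42.1 TPM, so shared reads could enter its value.

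**Figure D3:**
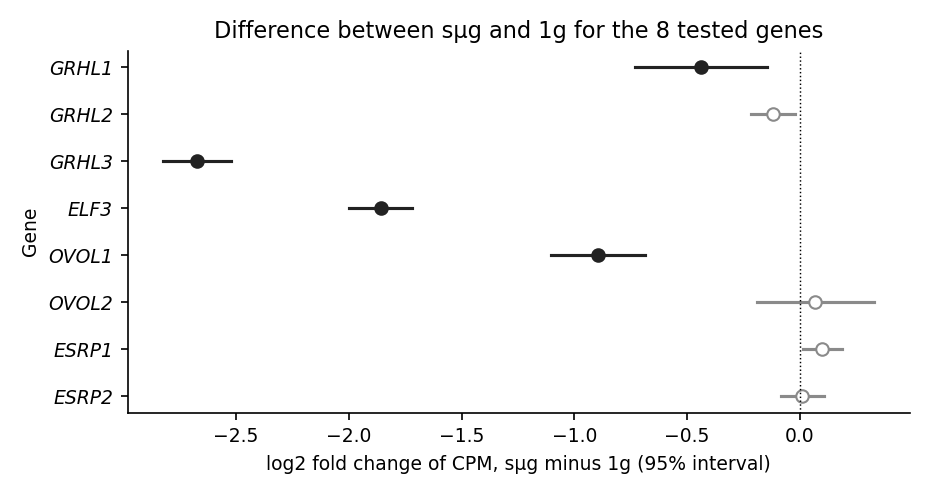
Log2 fold change of CPM, sµg minus 1g, with its 95% interval for the 8 tested regulators. Filled points passed the adjusted p threshold and open points did not. GRHL3 at −2.67, ELF3 at −1.86 and OVOL1 at −0.90 lie farthest from 0, and the intervals of ESRP2 and OVOL2 include 0.

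ESRP1 and ESRP2 bind pre-mRNA and promote epithelial exon choice. ESRP1, on chromosome 8 from 94641074 to 94707466, was the most abundant regulator, with 168, 176 and 172 CPM in 1g and 191, 187 and 173 CPM in sµg. The first 2 sµg libraries were above every 1g library, whereas sµg replicate 3 lay inside the 1g range. The log2 fold change was 0.10 with a 95% interval of 0.01 to 0.19 (adjusted p = 0.0714 from edgeR), and without sµg replicate 3 it was 0.15 (adjusted p = 1.46e-04 from edgeR), past the threshold. Over the alternatives the adjusted p of ESRP1 ran from 1.46e-04 to 0.668, and it passed in 1 of 17 settings.

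ESRP2, on the minus strand of chromosome 16 from 68229033 to 68238102, had 60.1, 61.2 and 57.3 CPM in 1g and 59.6, 58.7 and 61.6 CPM in sµg. The groups overlapped, and the log2 fold change was 0.01 with a 95% interval of −0.08 to 0.11 (adjusted p = 0.88 from edgeR). ESRP1 made up 72.6% to 76.4% of the summed TPM of the pair in 1g and 72.6% to 75.7% in sµg, and the ratio of ESRP1 to ESRP2 had an exact permutation p = 1.

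EHF and TP63 were near the limit of detection. EHF, an ETS factor of glandular and airway epithelia on chromosome 11, had 1, 2 and 5 counts in the 1g libraries and 1, 0 and 0 in the sµg libraries. With 8 counts against 1, the ratio of 1g to sµg after scaling was 6.88, with a 95% exact counting interval of 0.923 to 305 that covers counting error only, so a difference was not detectable at this depth. TP63, on chromosome 3, had 3, 4 and 3 counts in 1g and 3, 6 and 1 in sµg, 10 in each group. Both genes were below the filter on low counts. In the alternative without this filter neither was called by edgeR, with an adjusted p = 0.265 for EHF and 0.925 for TP63.

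Compared per length, the order of the levels in 1g was ESRP1 (85.9 TPM), ELF3 (44.8 TPM), ESRP2 (29.7 TPM), GRHL3 (23.2 TPM), GRHL2 (15.03 TPM), OVOL2 (7.83 TPM), OVOL1 (6.46 TPM) and GRHL1 (1.98 TPM), followed by TP63 and EHF at 0.103 and 0.0667 TPM. In this order the ranges over the libraries overlapped between TP63 and EHF alone. In sµg the order was ESRP1 (90.4 TPM), ESRP2 (31.1 TPM), GRHL2 (13.01 TPM), ELF3 (12.0 TPM), OVOL2 (8.25 TPM), OVOL1 (3.54 TPM), GRHL3 (3.52 TPM) and GRHL1 (1.87 TPM), again with TP63 and EHF last. There GRHL2 overlapped ELF3, and OVOL1 overlapped GRHL3. ELF3 thus moved from the second place to the fourth and GRHL3 from the fourth to the seventh. OVOL2 stood above OVOL1 per length, whereas in CPM OVOL1 was above OVOL2 in every 1g library.

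The deposited transcript tables held 91 transcripts of the 10 regulators, of which 27 had enough counts to be tested, and 5 fell and 0 rose in sµg (edgeR). Over all 53807 transcripts tested, 1.29% were called lower and 0.476% higher. None of the 27 was higher at an unadjusted p under 0.05 by edgeR, and DESeq2 and limma called 0 as higher. The 5 transcripts that fell became 2 without 1g replicate 1 and 3 without 1g replicate 2 or 1g replicate 3. The GRHL3 signal came mainly from GRHL3-204, with 90.3 ± 4.19% of the gene's TPM in 1g and 96.4 ± 6.16% in sµg (SD, n = 3 each). GRHL3-204 went from 21.7, 20.5 and 20.5 TPM to 3.10, 3.62 and 3.46 TPM, and its log2 fold change of −2.67 (adjusted p = 3.64e-04 from edgeR) matched that of the gene. OVOL1-201 held 93.5 ± 2.65% of OVOL1 in 1g and had a log2 fold change of −0.94 (adjusted p = 0.0348 from edgeR).

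For ELF3 the RNA was spread over several transcripts that fell together. The coding transcripts ELF3-202 and ELF3-203 had log2 fold changes of −1.70 and −2.002, and ELF3-206, annotated without a defined coding sequence, had −2.21. ELF3-206 held 39.6 ± 0.837% of the gene's TPM in 1g and 32.7 ± 2.69% in sµg, with every sµg library below every 1g library. The test of transcript use, which asks whether a gene's RNA is split differently between its transcripts, gave an adjusted p = 0.545 for ELF3 from edgeR. It called 0 of the 5 regulators that could be tested, where 1.49% of 10862 genes were called. At an unadjusted p under 0.05 it gave 1, ELF3, and limma's version on log2(TPM + 1) called ELF3 (adjusted p = 5.15e-05). In 1g, ELF3-201 had 0.29, 0.31 and 0.24 TPM and ELF3-206 had 17.9, 18.7 and 16.5 TPM. With 1 TPM added, an equal fall gives a smaller log2 change for the lower transcript. The limma call therefore cannot tell a changed split from the fall of the whole gene. Without sµg replicate 3 the edgeR test called 1, GRHL2 (adjusted p = 0.00316).

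Of 6 textbook targets of ESRP splicing, FGFR2, CD44, CTNND1, ENAH, ARHGEF11 and SCRIB, edgeR called 0 for transcript use, with 1 (ENAH) at an unadjusted p under 0.05, and limma's version called 0. Without 1g replicate 1 it called CD44 (adjusted p = 0.0101), and without sµg replicate 3 it called ARHGEF11 (adjusted p = 0.00871). FGFR2 has a pair of exons for its last immunoglobulin loop that exclude each other, exon IIIb of epithelia and exon IIIc of mesenchyme, and ENAH has a short epithelial exon. Exon IIIb and the ENAH exon are shown because the ESRP proteins promote their use. Each sequence is from GRCh38, minus strand, with the exon in capitals and 20 intron bases on each side, for windows chr10:121518662-121518849 and chr1:225504971-225505073.
FGFR2 exon IIIb: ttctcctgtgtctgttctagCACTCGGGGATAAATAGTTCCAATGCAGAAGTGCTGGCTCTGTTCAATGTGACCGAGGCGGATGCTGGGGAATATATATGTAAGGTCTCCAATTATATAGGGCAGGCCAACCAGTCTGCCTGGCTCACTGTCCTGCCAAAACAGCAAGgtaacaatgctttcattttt
ENAH exon: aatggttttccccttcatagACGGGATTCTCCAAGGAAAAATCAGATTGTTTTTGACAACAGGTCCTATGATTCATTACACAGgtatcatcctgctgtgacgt
These exons are 148 and 63 bases long, and both are flanked by the usual ag and gt intron ends.

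Transcripts with exon IIIb alone held 6.98%, 16.4% and 13.9% of the TPM of all FGFR2 transcripts with one or the other exon in 1g, and 7.82%, 17.2% and 11.8% in sµg. Exon IIIc thus led in every library, with at least 82.8% of this TPM. The mean IIIb share was 12.4 ± 4.88% in 1g and 12.3 ± 4.72% in sµg (exact permutation p = 1), a spread between libraries far wider than the difference. The ENAH exon was in 61.5%, 61.6% and 62.7% of the TPM of transcripts that span it in 1g, and in 60.8%, 58.6% and 56.7% in sµg. All sµg values were lower, with means of 61.9 ± 0.695% and 58.7 ± 2.09%, and the exact permutation p = 0.1 is the smallest this design allows. Most of this share came from ENAH-202, a transcript annotated as a retained intron, with 54.3 ± 0.653% of the same TPM in 1g and 51.5 ± 2.37% in sµg, where the groups overlapped. Without it, the exon's share was 16.8 ± 0.4% in 1g and 14.8 ± 0.636% in sµg, again with all sµg values lower (exact permutation p = 0.1), in a comparison added after the data were seen. At the gene level FGFR2 fell (log2 fold change −0.37) and so did SCRIB (−0.19), a polarity gene, while ARHGEF11, a guanine nucleotide exchange factor gene, rose by 0.20 (adjusted p = 0.00418 from edgeR), a rise that turned to −0.04 with an offset for effective length. The SCRIB call was lost without 1g replicate 1 (−0.13, adjusted p = 0.0854 from edgeR) and with limma on log2(TPM + 1) (adjusted p = 0.0694). Of 7 other regulators of cell type dependent splicing, 3 rose and 1 fell, where 15.5% of all genes tested were called higher and 18.2% lower. The median log2 fold change of these 7 was 0.03, beside 0.01 over all genes tested. Those with the smallest adjusted p, named next, are the ones that rose. PTBP2, a neuronal polypyrimidine tract binding protein gene, had a log2 fold change of 0.37, RBM47 of 0.39 and MBNL1 of 0.52, the last not called by limma on log2(TPM + 1) (adjusted p = 0.0581).

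**Figure D4:**
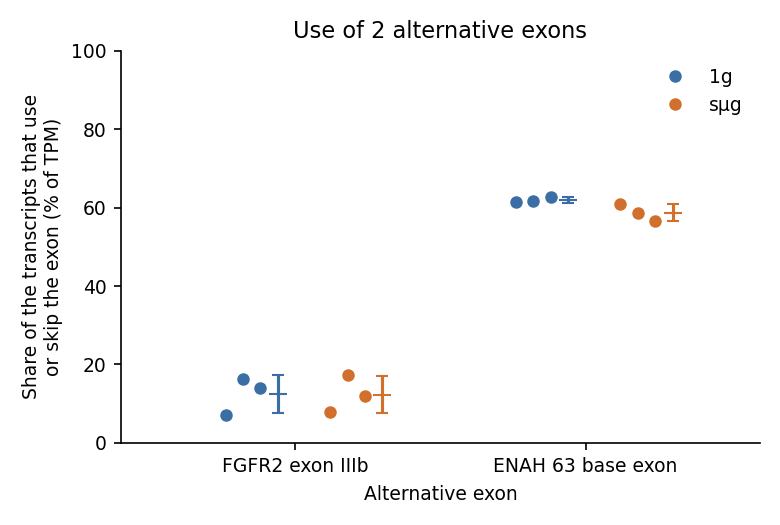
Share of FGFR2 exon IIIb among transcripts with exon IIIb or IIIc, and of the ENAH exon among transcripts that span it, in percent of TPM, with 1 point per library and the mean with its SD (n = 3) beside the points. The FGFR2 points overlap between 1g and sµg, and the ENAH points of sµg, from 56.7% to 60.8%, lie just under those of 1g.

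Among the relatives of the regulators, 2 of 8 tested genes fell and 2 rose, where 18.2% of all genes tested were called lower and 15.5% higher. The median log2 fold change was 0.07, beside 0.01 over all genes tested. ELF4, an ETS relative of ELF3, fell from 5.86 ± 0.458 to 2.42 ± 0.203 CPM (log2 fold change −1.28, adjusted p = 1.26e-06 from edgeR). TFCP2L1, a grainyhead relative of naive pluripotency, had a log2 fold change of −0.53, a call lost without sµg replicate 2 (−0.36, adjusted p = 0.0629 from edgeR), with the effective length offset (adjusted p = 0.367) and with limma on log2(TPM + 1) (adjusted p = 0.531). ELF5 had 0 counts in every library.

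Transcription factors of the surface ectoderm fell with GRHL3 and ELF3. Of 13 listed, 10 were tested, 9 fell and 0 rose, and the median log2 fold change was −2.56. At an unadjusted p under 0.05 by edgeR 1 was higher, and DESeq2 and limma called 0 as higher. Over all genes tested, 18.2% were called lower and 15.5% higher, with a median of 0.01. TFAP2A, the AP-2 factor of surface ectoderm and neural crest, had 17.9, 19.6 and 18.4 CPM in 1g and 2.78, 2.38 and 2.91 CPM in sµg (log2 fold change −2.78, adjusted p = 4.75e-13 from edgeR). TFAP2C had a log2 fold change of −2.15. GATA3, a factor of epidermis and trophectoderm, went from 9.53, 10.3 and 10.7 CPM to 0.480, 0.347 and 0.291 CPM (log2 fold change −4.75). With 10, 7 and 6 counts in sµg, GATA3 passed the filter on low counts only through its 1g libraries. The same held for DLX3 (5, 10 and 7 counts in sµg) and DLX5 (9, 7 and 12), both named after their values were seen. Such genes could enter the list's count as lower alone. The untested ones, named here after their values were seen, were below the filter on low counts. MSX1 had 36 counts in 1g and 3 in sµg, TFAP2B had 22 and 2, and ZNF750 had 19 and 9.

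Markers of trophectoderm and amnion moved with these genes. All 8 were detected and 6 of 7 tested fell, where 18.2% of all genes tested were called lower and 15.5% higher. These markers summed to between 37.2 and 40.6 TPM in 1g and between 18.5 and 22.9 TPM in sµg. GATA3, TFAP2B and KRT7 are also in the lists of surface ectoderm factors or keratins. Neural markers went from between 5.2 and 6.82 TPM to between 2.88 and 3.44 TPM, with 3 of 5 tested lower, and fibroblast markers from between 42.5 and 45.2 TPM to between 32.7 and 40.2 TPM, with 2 of 3 lower and 1 higher. Endoderm markers went from between 10.9 and 11.7 TPM to between 16.1 and 20.04 TPM, with 1 of 3 tested higher and 1 lower, and TTR at 0 counts in every library. The part of such cells in the falls of GRHL3, ELF3 and OVOL1 was not tested.

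Genes of the epithelial phenotype itself moved by less than GRHL3 and ELF3, although the log2 fold change of TJP3 was larger in size than that of OVOL1 (−0.90). All 22 listed genes of junctions and polarity were tested, 12 fell and 1 rose, with a median log2 fold change of −0.23. Of the 22, DESeq2 called 12 as lower and 0 as higher, and limma on log2(TPM + 1) called 8 as lower and 0 as higher. Among all genes tested, edgeR called 18.2% as lower and 15.5% as higher. PKP2, a desmosomal plakophilin gene, had 74.2, 75.1 and 74.2 CPM in 1g and 42.1, 40.0 and 38.2 CPM in sµg (log2 fold change −0.89, adjusted p = 5.03e-11 from edgeR). TJP3, a tight junction scaffold gene, had a log2 fold change of −1.03, and CLDN7, a claudin gene, of −0.34. E-cadherin (CDH1), named here after its values were seen, went from a mean of 412 CPM to one of 349.5 CPM, a log2 fold change of −0.24. EPCAM, also named after its values were seen, had 0.06 and did not pass the test (adjusted p = 0.194 from edgeR).

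The matriptase pathway, a protease cascade at the epithelial surface, was tested with 4 genes, of which 2 fell and 1 rose, with a median log2 fold change of −0.14. Beside this list and the keratins below, 18.2% of all genes tested were called lower and 15.5% higher, with a median of 0.01. PRSS8, the gene of prostasin, had a log2 fold change of −0.39, while ST14, the gene of matriptase itself, rose by 0.33 (adjusted p = 1.45e-04 from edgeR). All 4 tested keratins of simple epithelia fell and 0 rose (0 also at an unadjusted p under 0.05, by DESeq2 and by limma). KRT8 went from 465 ± 11.1 to 386 ± 1.34 CPM, KRT19 had a log2 fold change of −0.33 and KRT7 of −0.62. DESeq2 also called all 4 as lower, whereas limma on log2(TPM + 1) called 2, without KRT7 (adjusted p = 0.102) and KRT18 (adjusted p = 0.245). The same 2 calls were lost with the effective length offset (adjusted p = 0.114 and 0.0525 from edgeR), and that of KRT18 also when any 1g library was left out.

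Of 16 epidermal differentiation genes, 7 had enough counts to be tested, 2 rose and 1 fell, with a median log2 fold change of −0.15. For this list and the EMT list below, the shares over all genes tested were 15.5% called higher and 18.2% lower, with a median of 0.01. COL17A1, a hemidesmosome collagen gene, rose from 0.906 ± 0.145 to 1.79 ± 0.344 CPM, SFN, the gene of stratifin, rose by 0.53 on the log2 scale, and TGM1, a transglutaminase gene of the cornified envelope, had −0.96 (adjusted p = 0.0438 from edgeR). The TGM1 call was lost with DESeq2 (adjusted p = 0.15), with limma on log2(TPM + 1) (adjusted p = 0.244), with the effective length offset (adjusted p = 0.306), without the filter on low counts (adjusted p = 0.0742) and when any library but sµg replicate 2 was left out. DESeq2 called 1 gene of the list, COL17A1, as higher, without SFN (adjusted p = 0.102), and SFN was also lost with the effective length offset and without 1g replicate 1, 1g replicate 2, sµg replicate 1 or sµg replicate 3. Of 10 EMT regulators and markers, 7 were tested, 2 fell and 1 rose, with a median of −0.41. FN1, the fibronectin gene, had a log2 fold change of −0.41 and SNAI1 of −0.34, while VIM, the vimentin gene, went from 148 ± 0.912 to 177 ± 9.89 CPM (0.25). The SNAI1 call was lost with DESeq2 (adjusted p = 0.108), with limma on log2(TPM + 1) (adjusted p = 0.11), with the effective length offset (adjusted p = 0.105), without 1g replicate 1 (adjusted p = 0.14), without sµg replicate 2 (adjusted p = 0.0577) and without sµg replicate 3 (adjusted p = 0.0583).

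**Figure D5:**
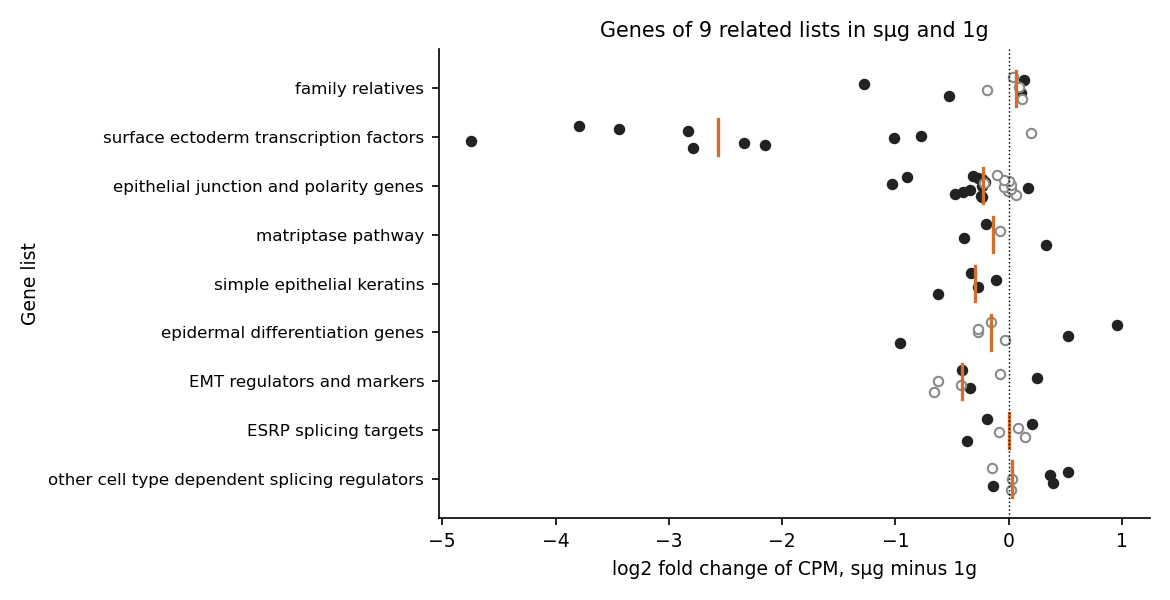
Log2 fold change of CPM, sµg minus 1g, for the tested genes of 9 lists, with 1 point per gene, filled where the adjusted p passed the threshold and open where it did not, and an orange line at each list's median. The surface ectoderm factors reach −4.75 with a median of −2.56, while junction genes and keratins stay between −1.03 and 0.17.

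The genes most like GRHL3 over the 6 libraries were found by Euclidean distance, among 14989 genes with a mean of at least 1 CPM. The distance used log2 CPM relative to each gene's 1g mean, with a small constant added to CPM before the log. The nearest genes were TNRC18 (distance 0.11), SERPINB9 (0.16), KCNJ4 (0.29), TFAP2A (0.31) and PDZD7 (0.35). SERPINB9, the gene of a granzyme B inhibitor, had 792, 806 and 786 CPM in 1g and 133, 135 and 139 CPM in sµg, a log2 fold change of −2.55 beside −2.67 for GRHL3. KCNJ4, a potassium channel gene, had −3.28 and PDZD7 −3.21. TFAP2A is the gene that also stood in the list of surface ectoderm factors. With 6 libraries in 2 groups, such a distance mostly measures how alike the falls are in size once the constant is added. The constant shrinks falls to low levels, and the sµg means of KCNJ4 and PDZD7 were 0.830 and 0.537 CPM. Their log2 fold changes from edgeR were larger in size than that of GRHL3.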

How the data were processed

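RNA of 6 hPSC libraries (3 sµg, 3 1g) was analysed. The submitters' processing notes name STAR 2.7.7a, RSEM 1.3.3 and GRCh38.p13. For each gene and transcript the authors deposited RSEM's expected count, its TPM and its effective length. The expected count shares multi-mapping reads between features by probability, and the sources used here do not give the strand setting, so reads of overlapping genes may have been mixed. Opposite-strand neighbours are STPG1 for GRHL3 (mean 5.27 TPM), ELF3-AS1 for ELF3 (1.77 TPM) and NFATC3 for ESRP2 (11.0 TPM).

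Deposited expected counts were rounded, filtered (filterByExpr, minimum count 10, minimum total 15), scaled by TMM and tested across all features with edgeR 4.0.16 in R 4.3.3 (quasi-likelihood test, Benjamini-Hochberg adjustment, threshold 0.05). Transcript use was tested with diffSpliceDGE, and shares and ratios with exact permutation tests. Alternatives used DESeq2 1.42.0, limma 3.58.1 on log2(TPM + 1) or log2(TPM + 0.1), and the settings of the closing section. In simulated counts for this comparison (16548 genes), edgeR recovered 97 of 100 genes changed by a log2 fold change of 1, with 8 false calls, and 77 of 100 such transcripts among 51784, with 6 false calls. The simulation gave every feature the same spread beyond counting error and held no library that stood apart. Recovery in the data may therefore be lower, and false calls more frequent. Positions are those of GENCODE 44 on GRCh38, whereas the study's methods name GENCODE 36, so gene spans may differ from those that were quantified. The GENCODE 44 span of GRHL3 starts at 24199558, well before the start of GRHL3-204 at 24319357. The genes and lists were chosen with earlier results of these data known. Named genes were all regulators, up to 3 per list with the smallest adjusted p, and the 5 genes nearest to GRHL3. Some sequences and genes of these lists are not reported here.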

Additional observations from a re-analysis of the deposited data

How the results depend on the processing

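GRHL3 and ELF3 were lower in all 17 settings and OVOL1 in 16, with log2 fold changes from −2.75 to −2.42, −1.94 to −1.81 and −0.96 to −0.72. GRHL1 was lower in 7. The 4 lower regulators became 2 when a log2 change of 1 or more in size was required, and the 0 higher ones became 0 to 1 when 1 library was left out (1 without sµg replicate 3). Over the 9 lists, the 36 lower genes became 11 with that fold threshold, and the 11 higher genes became 0 with it, 7 at an adjusted p under 0.01, 6 with an effective length offset, 7 with limma on either pseudocount and 7 to 11 when 1 library was left out (7 without sµg replicate 1). The 5 lower transcripts became 2 to 4 when 1 library was left out (2 without 1g replicate 1, 3 without 1g replicate 2 and 3 without 1g replicate 3). Transcript use went from 0 to 1 for regulators with limma, and from 0 to at most 1 for regulators and for ESRP targets when 1 library was left out. Signs reversed for the ARHGEF11 log2 fold change with an effective length offset (−0.0353), for ESRP2 without 1g replicate 3 (−0.0153) and without sµg replicate 3 (−0.00458), and for OVOL2 without 1g replicate 2 (−0.0225). With 1 library left out, ESRP2 ranged from −0.0153 to 0.0308 and OVOL2 from −0.0225 to 0.152. The cause of these changes was not tested.

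Same-numbered libraries had correlations of deviations of −0.0247, 0.037 and −0.0102, and not every library correlated best with its own number, so the numbers were not taken as pairs. A replicate block left 4 regulators lower and called 0 of their transcripts, and it called 5676 genes in all beside 5648. Over all genes, an effective length offset called 3115, limma on log2(TPM + 1) 2954 and limma on log2(TPM + 0.1) 2924. Low counts kept EHF and TP63 under the filter, and without it they had log2 fold changes of −2.46 and 0.19, with an adjusted p of 0.265 and 0.925 from edgeR.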

Other observations

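ZEB1, the gene of an EMT repressor of E-cadherin, was named after its values were seen. It had 1, 1 and 0 counts in the 1g libraries and 6.43, 7 and 11.1 expected counts in the sµg libraries. With 2 counts against 25 after rounding, the ratio of sµg to 1g was 14.5, with a 95% exact counting interval of 3.62 to 127 that covers counting error only. The gene was below the filter on low counts. In the alternative without this filter it was called higher in sµg, with a log2 fold change of 3.55 (adjusted p = 7.05e-04 from edgeR).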
